A study of Capra hircus with 3 samples.

Results

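GPNMB, GLDN, MCOLN3, CPM, ATP6V0D2 and CTSL are 6 genes, of 27271 in the deposited matrices, grouped here as genes of macrophages and their lysosomes. They were picked by symbol because several had stood out in macrophages of these same libraries, so their differences between libraries are given as a description and not as a test. Each symbol matched 1 gene. Single-cell 3′ RNA libraries of goat (Capra hircus) liver were compared. The NASH-T library came from a steatohepatitis tolerance group fed the HRDS diet. The NASH library came from goats fed that same diet, with non-alcoholic steatohepatitis (NASH). The Con library came from healthy goats given the LRDS diet instead. All goats were females of 3 to 4 years, and each library pooled the livers of 5 goats after trypsin digestion, straining and red cell lysis. With 1 library per group there is no replicate, and group, pool and handling cannot be told apart. No p-value is given, and every interval is a 95% interval of counting error only.

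Macrophages take up dead cells, lipid and debris and break them down in lysosomes, organelles that are acidified by a proton pump and filled with proteases and other hydrolases. Many lysosomal genes are switched on together by the MiT/TFE transcription factors. GPNMB is a transmembrane glycoprotein of phagocytes and pigment cells, known from mouse and human as a marker of lipid-laden macrophages. GLDN encodes gliomedin, an olfactomedin-domain protein known for the assembly of nodes of Ranvier in peripheral nerve. MCOLN3 encodes TRPML3, a cation channel of endosomes and lysosomes. CPM encodes carboxypeptidase M, a membrane enzyme that trims basic residues from peptides and appears in human monocytes as they become macrophages. ATP6V0D2 encodes an isoform of the d subunit of the proton pump, known from osteoclasts and macrophages, and CTSL encodes the cysteine protease cathepsin L.

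After filtering, 8914 NASH-T, 8389 NASH and 7200 Con cells remained, whose median depth was 2127.5, 2472 and 2392.5 UMIs. A UMI marks 1 captured RNA molecule, and a level is given as the UMIs of a gene per 1000000 UMIs of its cell class, abbreviated UPM because CPM is the symbol of one of the genes. UPM values are compared between libraries and classes and not between genes. A UPM value alone does not tell fewer cells with a transcript from less of it per cell. The cells fell into 26 clusters, built without the 6 genes, and classes were named from fixed markers. Macrophage-like cells numbered 1337 in NASH-T, 1067 in NASH and 1205 in Con. They held all their macrophage markers, 13 genes that summed to 8805 UPM in NASH-T, 8353 in NASH and 9113 in Con. Their 11 hepatocyte markers summed to 2116, 2025 and 1795 UPM and were all seen in each library, and the part of such RNA from other cells in the results was not tested. The libraries shared 20 to 23 barcodes pairwise, at most 0.281% of the smaller library.

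Over the 3 libraries together, macrophage-like cells held 79.6% of all GPNMB UMIs, 91.7% of GLDN, 93.3% of MCOLN3 and 74.4% of CPM, although they held only 13.2% of the UMIs of all genes. Library by library the share was lowest in NASH for GPNMB, GLDN and CPM. For GPNMB they held 326 of 404 UMIs in NASH-T (80.7%), 42 of 98 in NASH (42.9%) and 601 of 716 in Con (83.9%), and NASH hepatocyte-like cells held 43. For CPM they held 435 of 634 in NASH-T (68.6%), 153 of 414 in NASH (37.0%) and 1280 of 1464 in Con (87.4%). GLDN was at 94.4%, 79.5% and 92.1% in NASH-T, NASH and Con, and MCOLN3 at 94.8%, 95.1% and 91.9%. The cell mix differed too. Macrophage-like cells were 15.0% of kept cells in NASH-T, 12.7% in NASH and 16.7% in Con. Hepatocyte-like cells were 35.1%, 48.5% and 39.9%. The part of this mix in the shares was not tested. ATP6V0D2 and CTSL did not follow the label. Macrophage-like cells held 6.90% of the 203 ATP6V0D2 UMIs and 5.52% of the 435 CTSL UMIs. Endothelial-like cells held 68.5% of ATP6V0D2. Hepatocyte-like cells held 80.9% of CTSL, beside 61.7% of the UMIs of all genes.

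**Figure D1:**
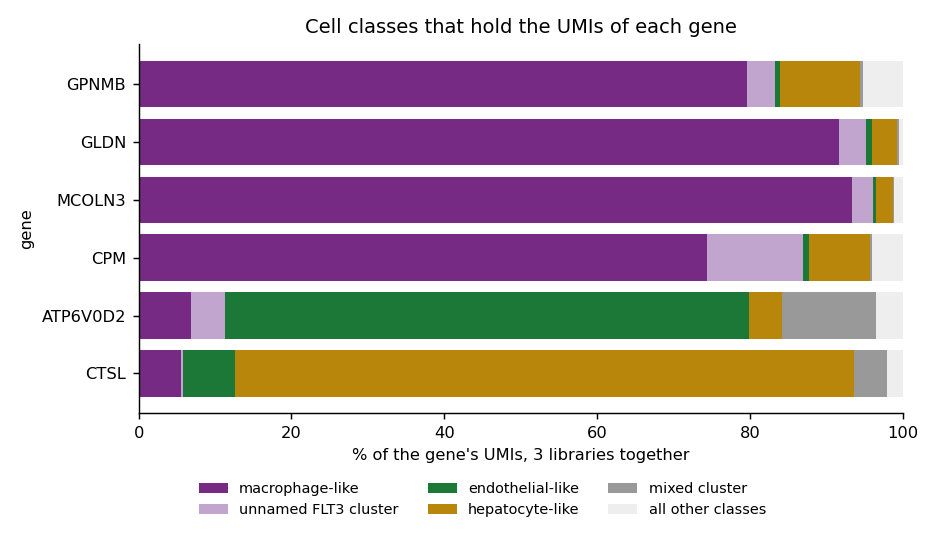
Share of each gene's UMIs held by each cell class, in percent, with the NASH-T, NASH and Con libraries added together. The purple macrophage-like part runs from 74.4% to 93.3% for GPNMB, GLDN, MCOLN3 and CPM, but is 6.90% for ATP6V0D2 and 5.52% for CTSL. In NASH taken alone, which the added bars do not show, it is 42.9% for GPNMB and 37.0% for CPM.

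GPNMB was highest in Con macrophage-like cells, intermediate in NASH-T and lowest in NASH. Its level was 78.6 UPM (70.3 to 87.6) in NASH-T, 15.2 (10.9 to 20.5) in NASH and 165 (152 to 179) in Con, from 326, 42 and 601 UMIs. These intervals do not overlap. NASH stood at 0.0919 of Con (0.0655 to 0.126), NASH-T at 0.476 of Con (0.414 to 0.545), and NASH-T at 5.18 times NASH (3.75 to 7.32). Both ratios to Con share the Con library and are not independent of each other.

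GLDN, MCOLN3 and CPM had the same order of libraries. GLDN stood at 57.4 UPM in NASH-T, 22.4 in NASH and 166 in Con, so NASH was at 0.135 of Con (0.102 to 0.176) and NASH-T at 0.345 (0.296 to 0.402). MCOLN3 stood at 74.0 in NASH-T, 21.0 in NASH and 99.3 in Con. Its NASH-T level was the nearest to Con of the 4, at 0.746 (0.638 to 0.871), while NASH was at 0.211 (0.157 to 0.279). CPM stood at 105 in NASH-T, 55.3 in NASH and 352 in Con, with NASH at 0.157 of Con (0.132 to 0.186) and NASH-T at 0.298 (0.267 to 0.332). Between NASH-T and NASH the ratio was 2.56 (1.93 to 3.44) for GLDN, 3.53 (2.66 to 4.76) for MCOLN3 and 1.90 (1.57 to 2.29) for CPM.

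Genes that summed to 50 UMIs or more in a pair of libraries count as measured, and a 1.5-fold ratio or more counts as higher or lower. Of the 6 genes, 4 were measured in macrophage-like cells. In NASH against Con, 4 of the 4 were lower and 0 higher, where 6.31% of all 8079 measured genes were lower and 3.96% higher. In NASH-T against Con, 3 of the 4 were lower and 0 higher, where 5.51% of 8489 genes were lower and 4.24% higher. In NASH-T against NASH, 4 of the 4 were higher and 0 lower, where 5.62% of 8162 genes were higher and 4.2% lower. The median log2 ratio of the 4 was -2.78 in NASH over Con, beside -0.02 over all measured genes, then -1.30 beside -0.02 in NASH-T over Con and 1.59 beside -0.0049 in NASH-T over NASH. The genes were picked for such differences, so nothing is read from these counts.

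**Figure D2:**
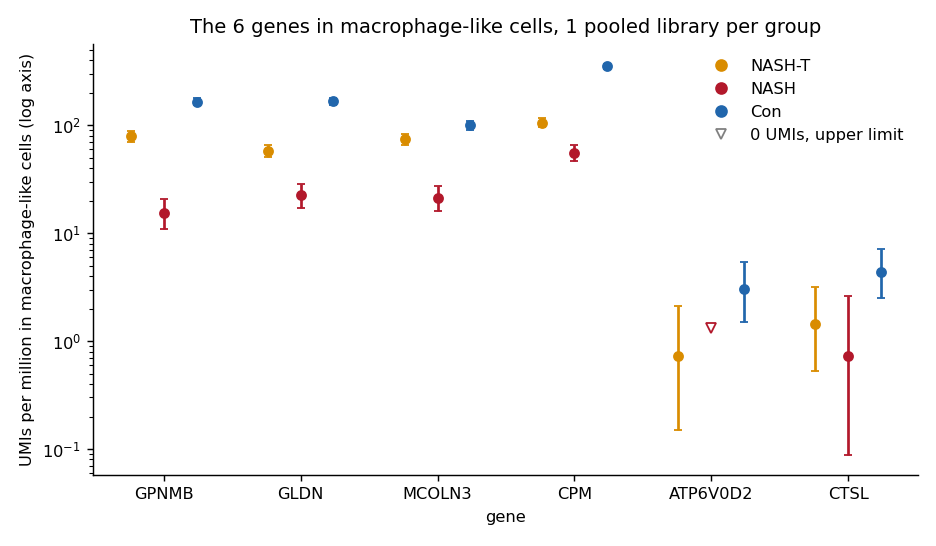
Level of each gene in macrophage-like cells on a log axis, in UPM over the class, for NASH-T, NASH and Con with 1 pooled library each. Bars are exact 95% Poisson intervals, and the open triangle is the upper limit where no UMI was counted. GPNMB, GLDN, MCOLN3 and CPM are lowest in NASH and highest in Con, while ATP6V0D2 and CTSL rest on 16 UMIs or fewer per library.

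Few macrophage-like cells held these transcripts, and the libraries differed in the share of cells more than in the amount per cell for GPNMB. With every cell thinned to 1000 UMIs, 2.81% of NASH-T (1.98% to 3.88%), 1.10% of NASH (0.549% to 1.95%) and 6.35% of Con macrophage-like cells (5.01% to 7.92%) had a GPNMB UMI. Without thinning the shares were 5.16%, 2.16% and 10.5%, at median depths of 2843, 2377 and 2769 UMIs. T cell-like cells, a class not known for GPNMB, gave 0.700% in NASH-T, 0.160% in NASH and 0.734% in Con after thinning, at median depths of 1223.5, 1009 and 1173.5 UMIs before it, and 0.993%, 0.162% and 0.790% without thinning. Thinning left out 58 NASH-T, 64 NASH and 56 Con macrophage-like cells and 510, 606 and 449 T cell-like cells, which were shallower. The NASH macrophage-like share therefore lay above that of NASH T cell-like cells, but the interval of the T cell-like cells runs to 0.888%, past the lower bound of the macrophage-like ones. A thinned cell with GPNMB held a mean of 2.42 UMIs in NASH-T, 1.45 in NASH and 2.52 in Con. For GPNMB in NASH the share was 0.173 of Con and the amount per positive cell 0.577 of Con.

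For CPM the share and the amount contributed more evenly. CPM was in 6.41% of thinned NASH-T cells, 4.39% of NASH and 9.92% of Con macrophage-like cells, and its amount per positive cell was 1.60, 1.45 and 3.30 UMIs. GLDN was found in 2.35%, 1.30% and 4.96% of thinned NASH-T, NASH and Con cells, and MCOLN3 in 3.75%, 1.30% and 5.13%. Without thinning CPM was in 13.1%, 8.25% and 16.3% of NASH-T, NASH and Con cells, GLDN in 4.26%, 2.53% and 7.97%, and MCOLN3 in 5.91%, 2.25% and 7.80%. MCOLN3 held 1.71, 2.15 and 1.90 UMIs per positive cell in NASH-T, NASH and Con, so its amount per cell was not lower in NASH, where 13 cells carry the value. In thinned T cell-like cells GLDN was not seen in any library, MCOLN3 reached at most 0.245% and CPM at most 0.480%.

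A small number of cells carried most of the RNA. At least 50.0% of macrophage-like GPNMB UMIs lay in 9 of 69 GPNMB-positive cells in NASH-T, in 5 of 23 in NASH and in 18 of 126 in Con. The highest cell held 31 GPNMB UMIs in NASH-T, 6 in NASH and 37 in Con. GLDN had 32, 13 and 110 UMIs in the highest cell of NASH-T, NASH and Con, or 13.4%, 21.0% and 18.2% of its macrophage-like UMIs. For CPM the highest cells held 25, 10 and 115 UMIs. Leaving out the highest cell of each library kept NASH below Con, with GPNMB at 0.0839, GLDN at 0.130, MCOLN3 at 0.175 and CPM at 0.161 of Con.

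Macrophage-like cells formed a large and a small cluster. The larger was led by MSR1, a scavenger receptor, ADGRE1, the F4/80 antigen of mouse macrophages, and TIMD4, a phosphatidylserine receptor of resident Kupffer cells. It held 1198 NASH-T, 1003 NASH and 982 Con cells. The smaller held 139 NASH-T, 64 NASH and 223 Con cells, or 10.4% (8.81% to 12.2%), 5.998% (4.65% to 7.60%) and 18.5% (16.4% to 20.8%) of the class. GLDN, CPM, GPNMB and MCOLN3 were its leading genes although none of them was used to build the clusters, followed by CTSB, NRP2, CACNA1E, ARHGAP22, ZC3H12C and VSIG4. Since these 4 genes are named as leading genes by their level in the smaller cluster, its contrast with the larger one in them is not read as a result.

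Within the smaller cluster, the libraries still differed. GPNMB was seen in 34.5% of its NASH-T cells, 14.1% of its NASH cells and 49.3% of its Con cells, without thinning. GPNMB stood there at 608 UPM in NASH-T (540 to 682), 131 in NASH (84.9 to 194) and 801 in Con (737 to 870). NASH was at 0.164 of Con (0.105 to 0.244), a difference present at fixed cluster beside the smaller number of cells. NASH-T was at 0.759 of Con (0.657 to 0.875), nearer to Con than in the class as a whole. GLDN stood at 448 in NASH-T, 157 in NASH and 784 in Con, and CPM at 541, 320 and 1615. MCOLN3 was the exception to the order, at 523 in NASH-T (460 to 591), 236 in NASH (172 to 316) and 420 in Con (374 to 471), so NASH-T was 1.24 times Con (1.05 to 1.48). In this cluster NASH rested on 25 GPNMB, 30 GLDN, 45 MCOLN3 and 61 CPM UMIs. The 13 macrophage markers there summed to 6258 UPM in NASH-T, 5001 in NASH and 7527 in Con, with 13, 12 and 13 of them seen. Of the 13, 6 had the library order of GPNMB and 7 had another. CD163, a scavenger receptor of resident macrophages, stood at 518 in NASH-T, 220 in NASH and 1435 in Con, and MSR1 at 1203, 855 and 1425. C1QA, a complement subunit of macrophages, stood at 643, 771 and 800, and TIMD4 at 437, 535 and 382 in NASH-T, NASH and Con. The part of these markers in the order of the 4 genes was not tested.

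In the larger cluster the 4 genes were sparse and did not share a pattern. GPNMB stood at 9.27 in NASH-T (6.42 to 13.0), 6.60 in NASH (3.85 to 10.6) and 11.3 in Con (7.76 to 15.8), with overlapping intervals. T cell-like cells stood at 7.84, 1.45 and 6.86 in NASH-T, NASH and Con. The NASH value of the larger cluster lay further above theirs, which rests on 2 UMIs. CPM stood at 47.7 in NASH-T, 35.7 in NASH and 46.1 in Con, and its ratio of NASH to Con of 0.775 had an interval from 0.588 to 1.02. GLDN was lowest in NASH-T, at 6.27, with 12.4 in NASH and 16.4 in Con. Of the 4, MCOLN3 alone had an interval of NASH over Con that excluded 1, at 15.3 in NASH-T, 5.05 in NASH and 21.5 in Con, with NASH at 0.235 of Con (0.118 to 0.431). The smaller cluster held 89.6% of macrophage-like GPNMB UMIs in NASH-T, 59.5% in NASH and 94.5% in Con.

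**Figure D3:**
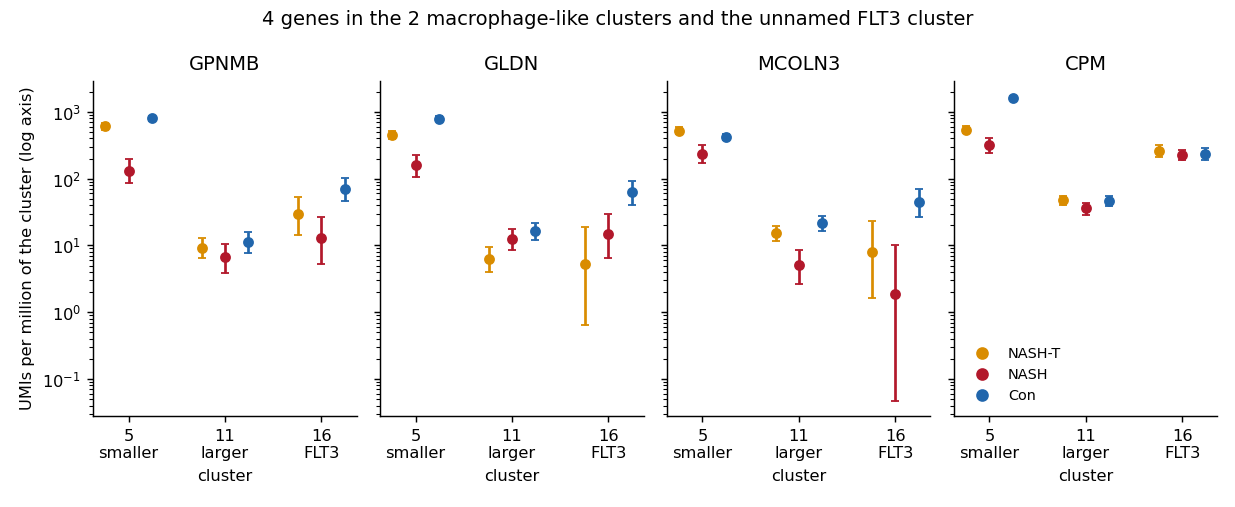
Levels of GPNMB, GLDN, MCOLN3 and CPM on a log axis, in UPM over the cluster, in the smaller (5) and larger (11) macrophage-like clusters and in the unnamed cluster led by PLBD1 and containing FLT3 (16), for NASH-T, NASH and Con. Bars are exact 95% Poisson intervals. CPM lies between 225 and 263 in the unnamed cluster of all 3 libraries, while in the smaller macrophage-like cluster it runs from 320 in NASH to 1615 in Con.

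Outside the macrophage-like cells, CPM was high in an unnamed cluster led by PLBD1 and TBC1D9 and with FLT3, the receptor tyrosine kinase of dendritic cells and their precursors, among its leading genes. This cluster held 165 NASH-T, 246 NASH and 177 Con cells. Its markers scored 0.88 for macrophage and 0.85 for dendritic cell. FLT3 among its leading genes made dendritic cell the class taken, which had under 3 markers at 2-fold, so it kept no name. At the finer resolution a cluster led by PLBD1 and TBC1D9, of 132 NASH-T, 204 NASH and 161 Con cells, was named macrophage-like, with 6 markers at 2-fold. In the unnamed cluster CPM stood at 263 UPM in NASH-T (213 to 320) and 225 in NASH (187 to 269). Both values lie above the macrophage-like cells of the same library. In Con CPM stood at 236 in the unnamed cluster (191 to 289), below the macrophage-like cells. NASH was at 0.954 of Con (0.724 to 1.26) and NASH-T at 1.11 (0.831 to 1.49), so the intervals exclude the ratios seen in macrophage-like cells. GPNMB in the same cluster was at 29.2 in NASH-T, 12.9 in NASH and 69.6 in Con, on 11, 7 and 28 UMIs, with NASH at 0.186 of Con (0.0685 to 0.435). GLDN, from 2, 8 and 25 UMIs, and MCOLN3, from 3, 1 and 18, were also highest in Con. Class by class, the neighbours of this cluster in GPNMB were plasma cell-like cells, at 23.5 in NASH-T (10.1 to 46.3) and 21.0 in Con (5.71 to 53.7), and their intervals overlap those of T cell-like cells. Hepatocyte-like cells had a GPNMB level of 1.98 UPM in NASH-T, 2.16 in NASH and 3.80 in Con.

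In the remaining classes GLDN and MCOLN3 had few UMIs. GLDN had no UMI in B, NK, plasma, mast or cholangiocyte-like cells of any library, and MCOLN3 none in NK, plasma, mast, cholangiocyte or stellate-like cells. In stellate or fibroblast-like cells CPM stood at 13.3 UPM in NASH-T, 15.97 in NASH and 20.2 in Con, on 11, 14 and 14 UMIs. B cell-like cells had 7 CPM UMIs in NASH-T, 13 in NASH and 6 in Con, a level of 23.9, 100.2 and 29.2 UPM. The NASH value lies above the 55.3 of macrophage-like cells but rests on 13 UMIs in 98 cells, and this difference was not tested.

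The 4 genes were found in the same cells more often than expected from their separate shares at matched depth. Expected numbers were computed within 5 depth strata of each library. GPNMB and MCOLN3 were together in 35 NASH-T macrophage-like cells where 4.63 were expected, in 7 NASH cells where 0.492 were expected and in 40 Con cells where 10.4 were expected. GPNMB and GLDN met in 23, 6 and 49 cells of NASH-T, NASH and Con, against 3.55, 0.562 and 10.4. GPNMB and CPM met in 40, 11 and 86 cells, against 9.94, 1.83 and 21.1. Of the cells with a GPNMB UMI, 58.0% in NASH-T, 47.8% in NASH and 68.3% in Con also had CPM, while 10.6%, 7.38% and 10.2% of the cells without GPNMB had it.

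The excess was lower within the smaller cluster alone. There, the observed number over the expected one for the 6 pairs of these 4 genes ran from 1.14 to 1.79 in NASH-T and from 1.27 to 1.52 in Con. In NASH it ran from 1.31 to 3.00, on 5 to 9 cells per pair. All 4 genes were present together in 14 NASH-T, 4 NASH and 22 Con cells, or 1.05%, 0.375% and 1.83% of the class. Cells with at least 3 of the 4 held 71.5% of GPNMB UMIs in NASH-T, 59.5% in NASH and 68.9% in Con. For CPM such cells held 40.0%, 13.1% and 58.1%.

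With cells thinned to 1000 UMIs, 3.05% of NASH-T (2.18% to 4.15%), 0.997% of NASH (0.479% to 1.83%) and 6.27% of Con macrophage-like cells (4.94% to 7.83%) held at least 2 of the 6 genes. Without thinning it was 5.76%, 2.34% and 10.4%. No T cell-like cell of any library held 2, with or without thinning. After thinning this allows a share of up to 0.368% in NASH-T, 0.588% in NASH and 0.45% in Con.

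**Figure D4:**
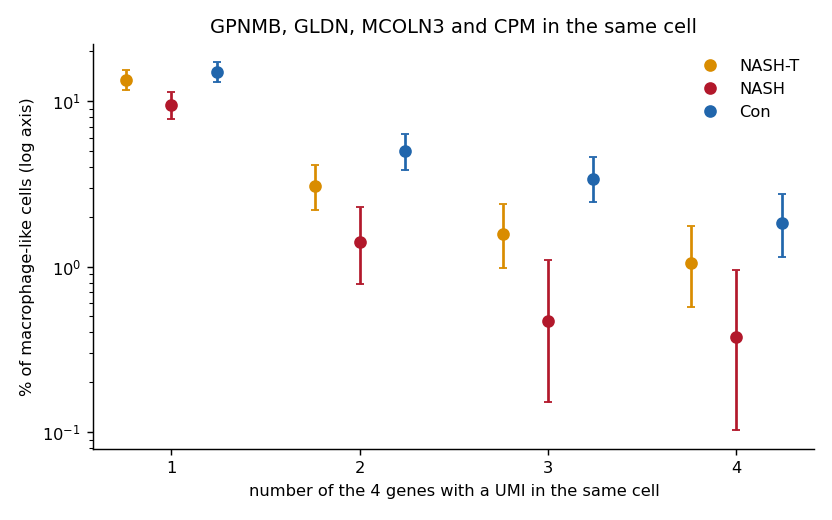
Share of macrophage-like cells, in percent on a log axis, that held a UMI of exactly 1, 2, 3 or 4 of GPNMB, GLDN, MCOLN3 and CPM, for NASH-T, NASH and Con without thinning. Bars are exact 95% binomial intervals. Cells with all 4 are 1.05% of NASH-T, 0.375% of NASH and 1.83% of Con, and Con is highest at each number of genes.

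Over 63 sums of a cluster within a library, GLDN and MCOLN3 followed GPNMB most closely of 7525 eligible genes, with Pearson's r of 0.948 and 0.941 on log2(UPM + 20). These sums share libraries, depth and cell classes, so r is a description. Next came CAPG, an actin-capping protein of macrophages (0.912), SYT16, a synaptotagmin (0.893), ASIC1, an acid-sensing ion channel (0.888), SMTNL1, a smoothelin-like protein (0.867), CRLF2, the thymic stromal lymphopoietin receptor (0.862), CXCL8, a neutrophil chemokine (0.848), CLEC7A, the beta-glucan receptor dectin-1 (0.813), and LGALS3, galectin-3 (0.798). CPM ranked 15, with an r of 0.771, while CTSL and ATP6V0D2 had an r of 0.198 and 0.116. Within macrophage-like cells SYT16 had the library order of GPNMB, at 26.5 UPM in NASH-T, 10.9 in NASH and 52.0 in Con. CAPG had 30, 7 and 38 UMIs in NASH-T, NASH and Con, and ASIC1 had 25, 3 and 32. CXCL8 was highest in NASH-T, at 22.9, with 3.62 in NASH and 6.60 in Con, and CLEC7A stood at 54.5, 58.6 and 100.1 in NASH-T, NASH and Con.

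GPNMB-positive macrophage-like cells, 69 in NASH-T, 23 in NASH and 126 in Con, were set against the GPNMB-negative cells of the same library. Of the positive cells, 48 in NASH-T, 9 in NASH and 110 in Con lay in the smaller cluster, so the contrast is largely that of the clusters and no result is read from it. The genes below had at least 20 UMIs in the positive cells of both NASH-T and Con, the cells in which they were high, and were picked for their ratio. TENM4, a teneurin of cell adhesion, stood at 104 UPM in positive and 2.56 in negative NASH-T cells, and at 141 and 4.95 in Con, with 1 UMI in positive NASH cells. MTSS1, a membrane-bending actin regulator, stood at 153 in positive and 11.8 in negative cells of NASH-T, at 325 and 38.3 in NASH, and at 444 and 33.4 in Con. DAPK1, a calcium-dependent kinase, TMEM117, a membrane protein, and GAS7, a cytoskeletal protein, were 5.37, 8.59 and 6.02 times as high in positive as in negative NASH cells. For RALGPS2, a Ral exchange factor, and MYO1E, a class I myosin of phagocytic cups, the NASH ratios of 2.21 (0.260 to 8.43) and 1.77 (0.358 to 5.34) had intervals that include 1.

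Markers of other cells were checked in the same GPNMB-positive cells. Their summed hepatocyte markers, 11 genes of which 10, 10 and 11 were seen in NASH-T, NASH and Con, came to 2013.5 in positive and 2122 in negative cells of NASH-T, 2009 and 2026 in NASH, and 1713 and 1806 UPM in Con. The 11 T cell markers came to 74.6 and 30.7 in NASH-T, 287 and 38.7 in NASH, and 44.4 and 34.0 in Con. Of these, 5, 6 and 7 were seen in the positive cells of NASH-T, NASH and Con. CD3D and CD28 were at 0 in all 3, CD3G, CD2 and CD5 in NASH-T and NASH, ICOS in NASH-T, and CD3E and CD4 in Con. The 10 stellate or fibroblast markers, of which 3, 1 and 6 were seen in the positive cells of NASH-T, NASH and Con, came to 37.3 in positive and 34.3 in negative cells of NASH-T, 153 and 28.8 in NASH, and 37.0 and 30.02 in Con. The 13 endothelial markers, of which 7, 6 and 8 were seen, came to 713 and 890 in NASH-T, 574 and 860 in NASH, and 474 and 720 in Con. The part of these transcripts in the results was not tested. The 13 macrophage markers were lower in positive cells, at 6024 and 8977 in NASH-T, 7556 and 8368 in NASH, and 7580 and 9305 in Con.

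ATP6V0D2 was found mostly in endothelial-like cells, and there in only 1 of 2 clusters. It had 0 UMIs in the endothelial-like cluster with VWF, in 122 NASH-T, 74 NASH and 84 Con cells. In the endothelial-like cluster led by STAB2, a scavenger receptor of liver sinusoids, it had 91 UMIs in NASH-T, 30 in NASH and 18 in Con. Its level over all endothelial-like cells was 46.0 UPM in NASH-T (37.0 to 56.5), 31.6 in NASH (21.3 to 45.1) and 25.6 in Con (15.2 to 40.4). NASH-T was 1.80 times Con (1.08 to 3.17), NASH 1.23 times Con (0.666 to 2.35), and NASH-T 1.46 times NASH (0.955 to 2.28). A mixed cluster with STAB2 and hepatocyte transcripts added 14 UMIs in NASH and 11 in Con. At the same threshold, 8.92% of 6264 genes measured in endothelial-like cells were higher in NASH-T than in Con.

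In macrophage-like cells ATP6V0D2 had 3 UMIs in NASH-T, 0 in NASH and 11 in Con. The floor of 3 counts would be a level of 1.08 UPM in NASH. The Con UMIs were all in the smaller macrophage-like cluster, in 7 cells. All 7 held CPM, 6 held GPNMB, 5 held GLDN and 5 held MCOLN3. The 3 NASH-T UMIs lay in the larger cluster, and none of the cells that held them had GPNMB, GLDN, MCOLN3 or CPM. T cell-like cells had 0 ATP6V0D2 UMIs in every library.

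Hepatocyte-like cells held 80.9% of the CTSL UMIs, but also 61.7% of the UMIs of all genes. Over the 3 libraries together CTSL stood at 7.15 UPM there, 8.26 in endothelial-like and 2.28 in macrophage-like cells. By library, CTSL in hepatocyte-like cells stood at 7.19 UPM in NASH-T (109 UMIs), 5.43 in NASH (108 UMIs) and 9.49 in Con (135 UMIs). NASH was thus at 0.572 of Con (0.440 to 0.742) and NASH-T at 0.758 (0.583 to 0.983). With cells thinned, 0.583% of NASH-T, 0.700% of NASH and 0.968% of Con hepatocyte-like cells had a CTSL UMI, so the order of NASH-T and NASH turned with thinning. In hepatocyte-like cells 11.6% of 11571 measured genes were lower by at least 1.5-fold in NASH than in Con. The libraries fill different hepatocyte-like clusters. NASH-T filled mostly those led by BHMT (1381 cells), UPP2 with HAL (660 cells) and FMO1 (607 cells). NASH filled those led by CYP7A1 (1718 cells) and UPP2 with RORB (1052 cells), and Con those led by BHMT (1043 cells) and FMO1 (949 cells). Within the FMO1 cluster, which also had LGR5, known from mouse hepatocytes around the central vein, CTSL was at 15.8 in NASH-T (11.7 to 20.7), 12.5 in NASH (7.44 to 19.8) and 15.7 in Con (12.3 to 19.7), with overlapping intervals. Within the BHMT cluster it was at 4.35, 5.00 and 6.81 in NASH-T, NASH and Con, again with overlapping intervals. In the UPP2 and HAL cluster it was at 4.10, 3.23 and 3.10. In the CYP7A1 cluster the intervals did not overlap. CTSL was at 26.9 there in NASH-T (10.8 to 55.4), on 7 UMIs, and at 7.11 in NASH (5.41 to 9.17), on 59. A cluster led by APOE had 4 UMIs in NASH-T, 0 in NASH and 10 in Con. The part of the cluster mix in the class levels was not tested. The UPP2 and RORB cluster of NASH had a low level, 2.31 (1.23 to 3.94).

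In macrophage-like cells CTSL had only 6 UMIs in NASH-T, 2 in NASH and 16 in Con. Of the 16 Con UMIs, 13 were in the smaller cluster, in 5 cells, of which the highest held 7. This gave the smaller cluster of Con a level of 18.3 UPM (9.76 to 31.4), beside 9.49 in Con hepatocyte-like cells. In NASH-T and NASH the smaller cluster stood at 4.16 and 5.25, on 2 and 1 UMIs. T cell-like cells had none.

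**Figure D5:**
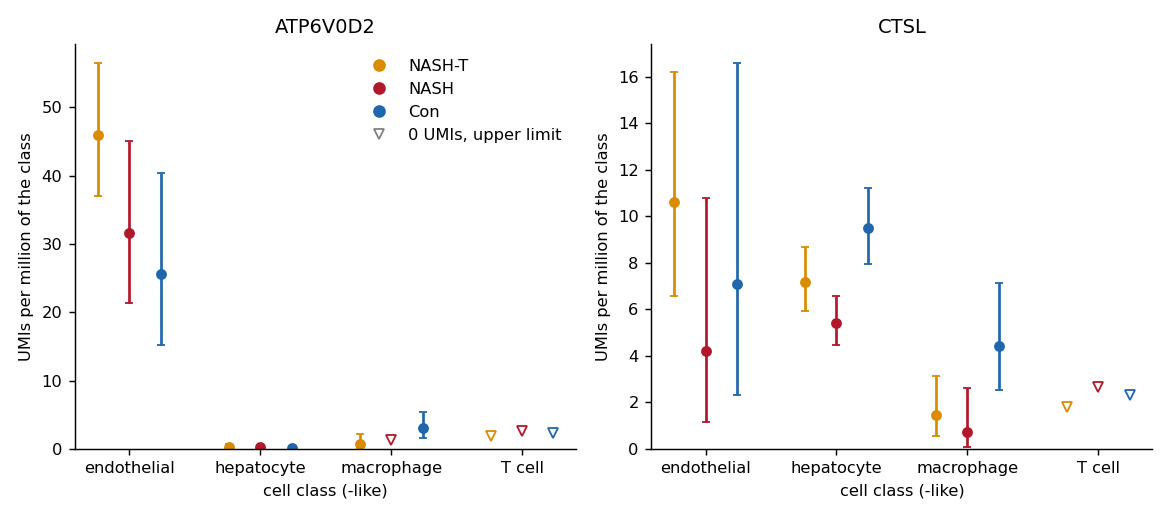
Levels of ATP6V0D2 and CTSL, in UPM over the class, in endothelial-, hepatocyte-, macrophage- and T cell-like cells of NASH-T, NASH and Con. Bars are exact 95% Poisson intervals and open triangles are upper limits where no UMI was counted. ATP6V0D2 is highest in endothelial-like cells, at 46.0 in NASH-T and 25.6 in Con, and CTSL in endothelial- and hepatocyte-like cells.

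Among close relatives of the 6 genes in macrophage-like cells, ATP6V0D1, MCOLN1, CTSS, CTSB and CPD stayed within 1.5-fold between libraries. CTSK was lower, at 0.555 of Con in NASH (0.384 to 0.790) and 0.627 in NASH-T (0.463 to 0.847). ATP6V0D1, the widely used d subunit of the proton pump, stood at 26.5 UPM in NASH-T, 25.0 in NASH and 23.4 in Con. MCOLN1, the ubiquitous channel of the mucolipin family, stood at 19.5, 26.8 and 20.1, and MCOLN2, its lymphoid relative, had only 12, 13 and 23 UMIs. Cathepsin S (CTSS), the protease of antigen processing, was at 550 in NASH-T, 516 in NASH and 558 in Con, and cathepsin B (CTSB) at 515, 391 and 445. CPD, a carboxypeptidase of the secretory route, was higher in NASH than in Con by 1.45 (1.03 to 2.05), at 26.5, 26.8 and 18.4 in NASH-T, NASH and Con. CPE, a prohormone-processing carboxypeptidase, had at most 4 UMIs per library. PMEL, the pigment-cell relative of GPNMB, had 0 UMIs in each.

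The wider lysosomal machinery of macrophage-like cells was close to level between NASH and Con. Over all 8079 measured genes, 6.31% were lower and 3.96% higher in NASH. Among V-ATPase subunits, none of the 11 measured passed 1.5-fold, and the median log2 ratio was -0.11. ATP6V0A1, a membrane subunit, stood at 429 UPM in NASH-T, 417 in NASH and 427 in Con, and ATP6V1B2, a catalytic-head subunit, at 411, 340 and 366. Among lysosomal hydrolases, cofactors and membrane proteins, none of the 17 measured did, and the median was 0.07. PSAP, the sphingolipid activator, stood at 655, 678 and 676, and ASAH1, acid ceramidase, at 466, 503 and 456 in NASH-T, NASH and Con. Among MiT/TFE factors and their regulators, none of the 9 measured did, and the median was -0.07. MITF stood at 2771, 2525 and 2864 and TFEC at 1056, 1007 and 911.

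Of 10 measured cathepsins other than CTSL, 1 was lower in NASH than in Con and none higher, and their median was -0.25. It was CTSK, the collagen-cleaving protease of osteoclasts, at 18.8 in NASH-T, 16.6 in NASH and 29.98 in Con. Of 11 lysosomal channels and transporters, 1 was lower and none higher, and their median was -0.18. This was SLC11A1, the metal transporter of phagosomes, at 24.8, 28.6 and 46.8. These shares lie near the 6.31% lower and 3.96% higher of all measured genes, whose median was -0.02.

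The lipid-associated macrophage genes included 3 lower and none higher of 7 measured in NASH against Con (median -0.45). Over all 8079 measured genes, 6.31% were lower and 3.96% higher (median -0.02). CD36, the fatty acid scavenger receptor, stood at 26.5 UPM in NASH-T (110 UMIs), 36.5 in NASH (101 UMIs) and 232 in Con (842 UMIs). NASH-T was thus at 0.115 of Con (0.0930 to 0.140), below the 0.476 of GPNMB, while NASH was at 0.158 (0.127 to 0.194). LPL, lipoprotein lipase, stood at 18.1, 10.5 and 30.8, and LGALS3 at 55.2, 45.9 and 96.3 in NASH-T, NASH and Con. TREM2, the lipid receptor that marks such macrophages in mouse and human, had 2, 0 and 0 UMIs, and SPP1, osteopontin, had 4, 1 and 1.

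The counts of the next 4 lists stand beside 6.31% lower and 3.96% higher of all 8079 measured genes (median -0.02). Of 6 measured osteoclast and giant cell genes, 2 were lower in NASH than in Con and none higher (median -0.51). They were CTSK and CHI3L1, a chitinase-like lectin of macrophages, at 35.0 in NASH-T, 25.3 in NASH and 40.4 in Con. Of 11 Kupffer cell genes, 1 was lower and none higher (median -0.15). It was CD163, the haemoglobin scavenger receptor, at 690, 603 and 1095. Of 4 measured monocyte genes, 2 were lower and none higher (median -0.37). VCAN, the proteoglycan versican, had 11, 3 and 59 UMIs in NASH-T, NASH and Con, and FCN1, a ficolin of monocytes, stood at 7.96, 34.0 and 55.0 UPM. Of 5 binding partners of GPNMB and gliomedin, 2 were lower and none higher (median 0.07). SDC4, a heparan sulfate proteoglycan that binds GPNMB, had 53, 18 and 64 UMIs, and ITGA5, an integrin chain, had 32, 20 and 42, with an interval for NASH over Con of 0.348 to 1.09.

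NASH-T was set against the same Con library for these lists, beside 5.51% lower and 4.24% higher over all 8489 measured genes. In NASH-T, 3 of 8 measured lipid-associated genes were lower than in Con and none higher (median -0.45), again CD36, LPL and LGALS3. Of 4 measured monocyte genes 2 were lower (median -1.50), with VCAN at 0.163 of Con (0.0774 to 0.314) and FCN1 at 0.145 (0.0969 to 0.210). Of 11 Kupffer cell genes 1 was lower (median -0.05), again CD163, at 0.630 of Con (0.600 to 0.661). Of 6 osteoclast genes 2 were lower (median -0.36), CTSK and TNFRSF11A, the RANK receptor. Of 10 other cathepsins 1 was lower (median -0.24), again CTSK, and none of 9 MiT/TFE genes (median -0.05) or of 5 binding partners (median -0.25) passed 1.5-fold.

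Lysosomal genes higher in NASH-T than in Con were few, and those named here for it were chosen after their values were seen. Of 12 V-ATPase subunits 1 was higher (median 0.09), ATP6V0C, a subunit of the rotor ring, with 48 UMIs in NASH-T, 14 in NASH and 28 in Con and an interval that includes 1. Of 18 hydrolases, cofactors and membrane proteins 1 was higher (median 0.07), GLA, the galactosidase deficient in Fabry disease, with 60, 26 and 25 UMIs, at 2.10 times Con (1.30 to 3.50). Of 11 channels and transporters 1 was higher and 1 lower (median -0.18), CLCN7, a chloride and proton exchanger, at 33.3 UPM in NASH-T, 22.4 in NASH and 19.8 in Con, and SLC11A1.

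Between NASH-T and NASH, where the 4 genes were all higher in NASH-T, the lists held few differences, beside 5.62% higher and 4.2% lower over all 8162 measured genes. In NASH-T 1 of 7 lipid-associated (median 0.27), 1 of 5 binding partner (median 0.09) and 1 of 6 osteoclast genes (median 0.02) were higher. LPL was 1.72 times NASH (1.11 to 2.75), SDC4 was 1.96 times NASH (1.13 to 3.56), and ACP5, the tartrate-resistant acid phosphatase of osteoclasts and macrophages, was 1.60 times NASH (1.45 to 1.77), at 317 UPM in NASH-T, 198 in NASH and 286 in Con. V-ATPase subunits were higher in 2 of 12 (median 0.09), ATP6V0C and ATP6V1E1, and GLA was the only one of 17 hydrolases past 1.5-fold (median 0.01). Of 3 measured monocyte genes 1 was lower (median -0.35), FCN1, at 0.234 of NASH (0.152 to 0.351). None of 10 other cathepsins (median 0.10), 11 channels and transporters (median -0.04), 9 MiT/TFE genes (median 0.07) or 11 Kupffer cell genes (median 0.13) passed 1.5-fold in this comparison.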

How the data were processed

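The authors deposited 10x gene-by-barcode matrices of UMI counts, made with Cell Ranger 7.0.0 per the submitters' processing notes. The genome build is not given in the sources used here. Every deposited barcode had at least 500 UMIs. Cells with at least 200 genes and at most 20% mitochondrial UMIs were kept, and Scrublet (scanpy 1.11.5, expected rate 0.06) removed 459 NASH-T, 342 NASH and 284 Con barcodes as doublets. Kept UMIs numbered 27005297, 29059323 and 23752171. From 2000 variable genes without the 6 genes, 30 components, 15 neighbours and Leiden clustering (resolution 0.8) gave 26 clusters, without batch correction, since library and group coincide.

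A cluster took the class whose markers, of 163 names in 20 sets, had the highest mean fold over other clusters. Among named clusters the exception was 1 called T cell-like, although NK cell markers scored 1.05 there and T cell markers 0.94. Its 10 top genes held 1 T cell marker, CD2, and no NK cell marker, and this decided its name. It held 2787 of the 4007 T cell-like cells. A cluster stayed unnamed with under 3 markers at 2-fold. Clusters where hepatocyte markers reached 0.5 of the hepatocyte-like median beside 3 markers of another class were set aside as mixed. Names rest on markers alone. These rules, the 6 genes and the 10 gene lists (139 names, 123 in the matrices) were chosen with earlier results of these data known.

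UMIs were summed per library and class. Levels carry exact Poisson, shares exact binomial and ratios exact conditional binomial intervals. The ratio intervals were run on simulated Poisson counts, the model they assume, so their coverage there followed from the setting. The simulation had no clumping of UMIs in single cells and cannot show whether the intervals hold with it. Where no UMI was counted, 3 counts set the floor of a level, and shares and figures give the exact upper limit. Named genes were the 6, up to 4 list members with the largest NASH to Con ratio past 1.5-fold (else the 2 with most UMIs), close relatives, the 10 most like GPNMB, and the 10 with the largest difference in GPNMB-positive cells. TREM2, SPP1, C1QA, GLA, CLCN7, TNFRSF11A, ACP5, ATP6V0C, ATP6V1E1 and the VWF, STAB2, CYP7A1, UPP2, HAL, RORB, LGR5, BHMT, FMO1, APOE, PLBD1, TBC1D9 and FLT3 labels were added after their values were seen. Alternatives were thinning, other filters, doublets kept, a finer resolution, clustering with the 6 genes, a mean over cells, the cluster mix of Con, single clusters and the highest cell left out. No promoter or protein sequence was used here.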

Additional observations from a re-analysis of the deposited data

Results flagged for a closer look

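CPM differed in opposite directions between cell classes in NASH-T against NASH. In macrophage-like cells NASH-T stood at 1.90 times NASH (1.57 to 2.29), on 435 NASH-T and 153 NASH UMIs. In B cell-like cells it stood at 0.238 of NASH (0.0804 to 0.642), on 7 NASH-T and 13 NASH UMIs in 192 and 98 cells. With 1 library per group, the difference between the classes was not tested.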

How the results depend on the processing

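Every group is 1 pooled library, so no replicate could be left out. No paired analysis was possible because each group is 1 pooled library, and the number 1 that each carries is a name and pairs nothing. Of 186 alternative values of the level ratios of the 6 genes, 146 stayed within the counting interval of the main value and 38 moved outside it. The other 2 crossed 1 from a main difference of at least 1.5-fold. Of the 38, 2 also crossed 1, MCOLN3 and CTSL below. For GPNMB, NASH over Con became 0.136 as a mean over cells, 0.197 with the cluster mix of Con in every library and 0.586 in the larger macrophage-like cluster alone. NASH-T over Con became 0.795 with that mix and 0.822 in the larger cluster, and NASH-T over NASH became 3.27 as a mean over cells and 1.404 in the larger cluster. The larger cluster alone was a choice made after seeing the data, and the share of all its genes past 1.5-fold is not given. There, NASH over Con was 0.235 (0.118 to 0.431) for MCOLN3, while the interval of GPNMB, from 0.306 to 1.08, included 1. GLDN in NASH-T over Con was 0.383 (0.222 to 0.641), and MCOLN3 in NASH-T over NASH was 3.02 (1.63 to 6.03). The 2 values that crossed 1 from a difference of at least 1.5-fold were also of the larger cluster. CPM in NASH-T over Con became 1.03 (0.822 to 1.31), within 1.5-fold and with an interval that includes 1. GLDN in NASH-T over NASH became 0.505 (0.282 to 0.890). With the cluster mix of Con, MCOLN3 in NASH-T over Con became 1.20. Counting the unnamed cluster with the macrophage-like cells, also chosen after seeing the data, moved CPM in NASH over Con to 0.244, and clustering with the 6 genes moved it to 0.251. In hepatocyte-like cells CTSL in NASH-T over NASH was 1.32 (1.01 to 1.74), and 0.882 with cells thinned. The cause of these changes was not tested, except that fewer or other cells were used by construction. Of 66 alternatives for shares, lists and co-detection 33 moved. Depth limits ATP6V0D2 and CTSL in macrophage-like cells, which rest on at most 16 UMIs per library. PCR and pooling are not in the intervals, and differences between goats cannot be told apart from those between libraries.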
